A study of Homo sapiens with 112 samples.

Results

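The kallikrein genes encode secreted serine proteases that lie side by side on chromosome 19, and the 7 members described here are KLK1, KLK2, KLK3, KLK4, KLK10, KLK11 and KLK15. They were taken from the deposited table by gene symbol, and they are 7 of its 58684 listed genes. All 7 have a row in the table, but not all have enough reads to be tested. KLK2, KLK3, KLK4 and KLK15 passed the minimum of 10 reads in at least 4 libraries in the prostate cancer line VCaP, so 4 of the 7 members were tested there. In the prostate cancer line LAPC4 KLK1 passed as well, so 5 of the 7 were tested. KLK15 passed there only through the R1881 group at 22 h, which holds 8 of its 10 libraries with 10 reads or more, so it is left out of all counts and medians of members in LAPC4 and its values there are a description. KLK10 and KLK11 passed in neither line and are given as read counts.

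The study asked how the androgen receptor antagonist darolutamide changes the response to androgen in cultured cells. All groups share a starvation step of 2 days before treatment, in which the cells grew with 10% charcoal-stripped serum, a serum depleted of steroid hormones. They were then treated for 8 or 22 h with the solvent DMSO, with 1 nM of the synthetic androgen R1881, or with 1 nM R1881 together with 500 nM or 2 µM darolutamide. RNA was sequenced from 55 VCaP and 57 LAPC4 libraries, in 8 groups per line. In VCaP the groups hold 8 to 10 DMSO, 9 or 10 R1881, 4 libraries with 500 nM and 5 with 2 µM darolutamide per time, and in LAPC4 they hold 7 to 10, 10, 5 and 5. Each line is a single cell line, so the libraries are repeat samples of that line, and the spread between them is the error of every comparison here. The study's methods state 5 biological replicates per condition, while the control groups hold more, so it is not known which libraries are separate cultures and the p-values measure the spread between libraries. No group received darolutamide without R1881.

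Kallikreins are made as inactive precursors and are cut into active enzymes after secretion, in part by each other. KLK3 is the prostate-specific antigen, a protease that liquefies semen by cleaving the semenogelins, and KLK2 is a closely related trypsin-like protease that can activate the KLK3 precursor. Both are textbook targets of the androgen receptor, a hormone-dependent transcription factor that binds DNA at inverted repeats of a hexamer, and KLK3 in blood is the routine marker of androgen receptor activity in prostate cancer. KLK4 and KLK15 are further trypsin-like members found in prostate, KLK1 is tissue kallikrein, which releases kinin peptides from kininogen, and KLK10 and KLK11 are expressed in many glandular epithelia.

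The sequences before the start sites of KLK3 and KLK2 are shown because these genes gave the main contrast between the cell lines, and because the best-studied hormone response element of the family lies in this stretch. Both are the 250 bases before the RefSeq start on GRCh38.p14, read 5′ to 3′ on the plus strand, at chr19:50854665-50854914 for KLK3 and chr19:50873189-50873438 for KLK2. Capitals mark the best match, on either strand, to 2 AGAACA hexamers as an inverted repeat with 3 bases between them, the usual form of an androgen response element.
KLK3: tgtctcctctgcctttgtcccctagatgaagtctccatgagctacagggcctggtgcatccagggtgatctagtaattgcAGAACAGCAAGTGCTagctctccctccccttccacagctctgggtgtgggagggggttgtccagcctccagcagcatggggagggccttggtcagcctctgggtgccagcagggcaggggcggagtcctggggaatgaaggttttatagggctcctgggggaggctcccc
KLK2: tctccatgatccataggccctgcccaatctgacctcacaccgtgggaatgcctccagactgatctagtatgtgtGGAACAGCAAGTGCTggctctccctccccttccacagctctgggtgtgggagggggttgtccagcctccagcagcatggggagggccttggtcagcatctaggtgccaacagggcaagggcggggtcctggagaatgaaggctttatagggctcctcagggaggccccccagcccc
The match in KLK3, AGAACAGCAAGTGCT, lies 170 to 156 bases before the start and holds 10 of the 12 letters of the pattern. Of all 35116 RefSeq windows, from 250 bases before to 50 after a start, 1.41% hold a match at least as good. The match in KLK2, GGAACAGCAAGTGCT, lies 176 to 162 bases before the start and holds 9 of the 12 letters, and 10.8% of windows match as well. The hexamer itself occurs once in the KLK3 window and not in the KLK2 window, against 14.8% of all windows that hold it. The pair of upstream stretches has 211 identical bases in 237 aligned columns, or 89%, with a longest shared run of 80 bases. The best matches were weaker in the other members with an entry, with 8 of 12 letters in KLK10 and 7 of 12 in KLK4, KLK11 and KLK15, and KLK15's 7 is reached by 89.2% of windows. KLK1 has no entry in the table of upstream sequences. These matches describe the letters only, and binding was not measured in the data used here.

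On GENCODE 44 (GRCh38) the members span chromosome 19 in the order KLK1 (50819146 to 50823787, minus strand), KLK15 (50825289 to 50837213, minus), KLK3 (50854915 to 50860764, plus), KLK2 (50861568 to 50880567, plus), KLK4 (50906351 to 50911395, minus), KLK10 (51012739 to 51020175, minus) and KLK11 (51022216 to 51028039, minus). KLK3 and KLK2 are neighbours on the same strand and share few exact stretches of the read length. Of 5074 stretches of 50 bases, the read length, in the KLK3 transcripts, 11 also occur in another kallikrein gene, as do 11 of 6861 in KLK2 and none in the other 5 members. KLK2 was far more abundant than KLK3 in VCaP, and the handling of multiply mapped reads is not given. The share of KLK3 reads there that come from KLK2 was therefore not measured. KLK15 and KLK10 overlap long noncoding RNA genes on the opposite strand, over 6684 and 361 bases. The strand setting of the counting is not given in the sources used here, so reads of these overlapping genes may not be separated.

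The libraries held 12188455 to 25201678 counted reads. All 6 luminal prostate markers reported, among them KRT8, EPCAM and HOXB13, had a median over 1 CPM in both lines, while the basal (0 of 3) and leukocyte (0 of 3) markers did not. Of the other markers over that level, VCaP held 3 of 3 neuroendocrine and 1 of 4 stromal genes and LAPC4 held 1 of 3 and 0 of 4. ERG, which VCaP expresses from a gene fusion, had 117 to 1067 CPM in VCaP and 0 or 1 read in LAPC4, in keeping with the line labels. CPM are counted reads scaled to the same library total after TMM normalization, and RPKM are CPM divided by the exon length of the gene in kilobases.

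Before any androgen was added, VCaP and LAPC4 differed far more in KLK2 than in KLK3. Per exon length, the vehicle libraries of VCaP at 22 h held a median of 465 RPKM of KLK2, 42.4 of KLK4, 3.85 of KLK3 and 0.612 of KLK15. In LAPC4 the order was another, with 9.85 RPKM of KLK4, 3.13 of KLK3, 0.744 of KLK2, 0.703 of KLK1 and 0.0642 of KLK15. These orders rest on the counts as deposited and on GENCODE 44 exon lengths, since the annotation that the authors counted on is not given in the sources used here. In DMSO at 22 h KLK2 was 747-fold higher in VCaP (log2 difference 9.55 ± 0.09 SE, edgeR adjusted p = 3.20e-103). KLK4 was 5.29-fold higher (2.40 ± 0.14, 7.04e-32) and KLK3 1.52-fold (0.61 ± 0.08, 3.67e-12). For KLK15 the fitted difference was 12.3-fold (3.63 ± 0.21), given as a description. Every edgeR adjusted p given here comes from its quasi-likelihood F-test, adjusted by Benjamini and Hochberg's method over all genes tested. KLK2, KLK3 and KLK4 were all called higher in VCaP at 22 h, against 41.4% of all genes, and likewise at 8 h, against 42.4%. KLK15 is left out here, since only R1881 at 22 h let it pass the read minimum in LAPC4. The median log2 difference over all genes tested in both lines was -0.04 at 22 h. At 8 h the differences were 9.72 for KLK2, 3.80 for KLK15, 2.67 for KLK4 and 0.78 for KLK3. KLK2 alone took up 0.304% of the counted reads of a VCaP vehicle library at 22 h (median of 8), where it ranked 15th of all genes by reads, and 0.805% with R1881, where it ranked 2nd. In LAPC4 with R1881 at 22 h KLK2 ranked 7327th.

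**Figure D1:**
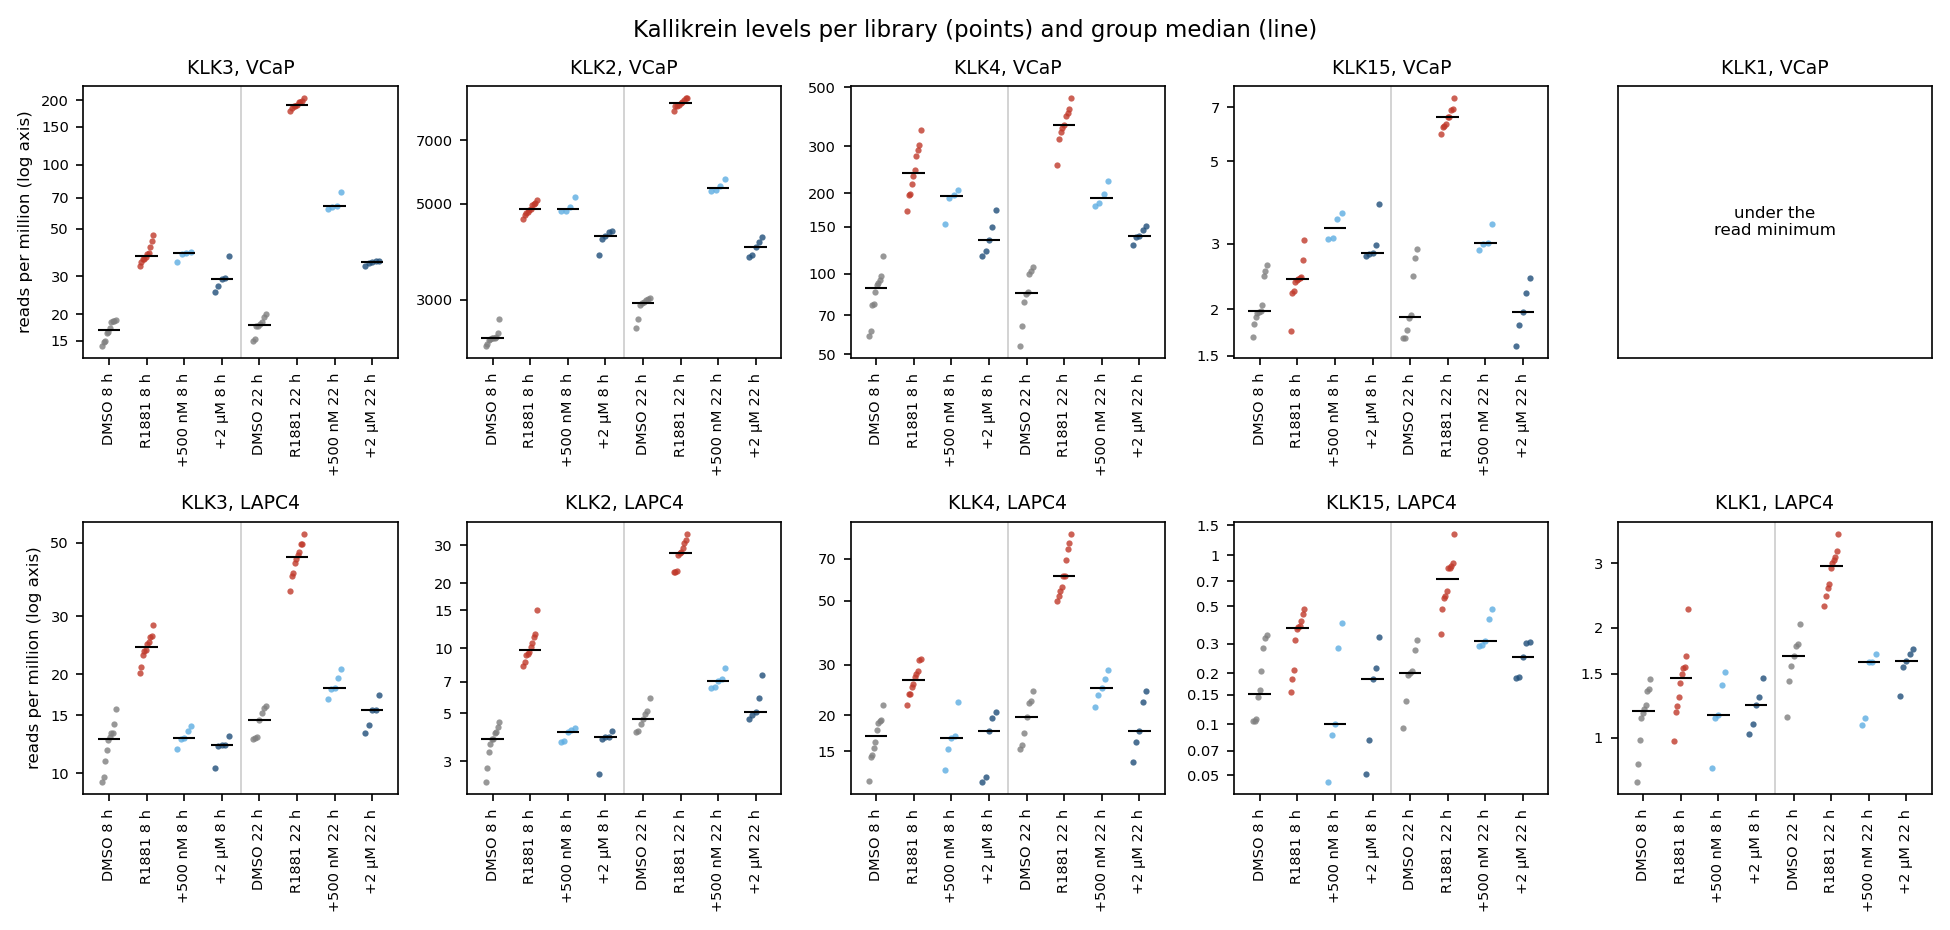
Expression of the 5 members with enough reads in every library of VCaP and LAPC4, as CPM on a log axis that differs between panels, by treatment and time (KLK1 in VCaP was under the read minimum). Each point is a library, points within a group are sorted by value, the black line is the group median, and 1 LAPC4 vehicle library with 0 KLK15 reads is not drawn. KLK2 lies at 2349 to 8743 CPM in VCaP and at 2.41 to 33.8 CPM in LAPC4, while the ranges of KLK3 overlap between the lines.

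R1881 raised most of the tested members in both lines, and the number called grew from 8 to 22 h. In VCaP 3 of 4 rose at 8 h (32.8% of all 19266 genes tested were called higher) and 4 of 4 at 22 h (37.4%). In LAPC4, where R1881 moved far fewer genes, 3 of 4 rose at 8 h (1.75% of 18204 genes) and 4 of 4 at 22 h (6.83%). The median log2 change of these members was 1.09 at 8 h and 1.88 at 22 h in VCaP, against -0.03 over all genes at both times, and 0.81 and 1.69 in LAPC4, against -0.01 and 0.01. None of these members fell with R1881 in either line. Of all genes tested, the R1881 and DMSO libraries did not overlap for 32.0% at 8 h and 46.8% at 22 h in VCaP. In LAPC4 the shares were 0.725% and 3.83%. They are the background for each such statement on a member between R1881 and DMSO. For the darolutamide groups no such share is given here, so statements of overlap on those groups only describe the members.

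**Figure D2:**
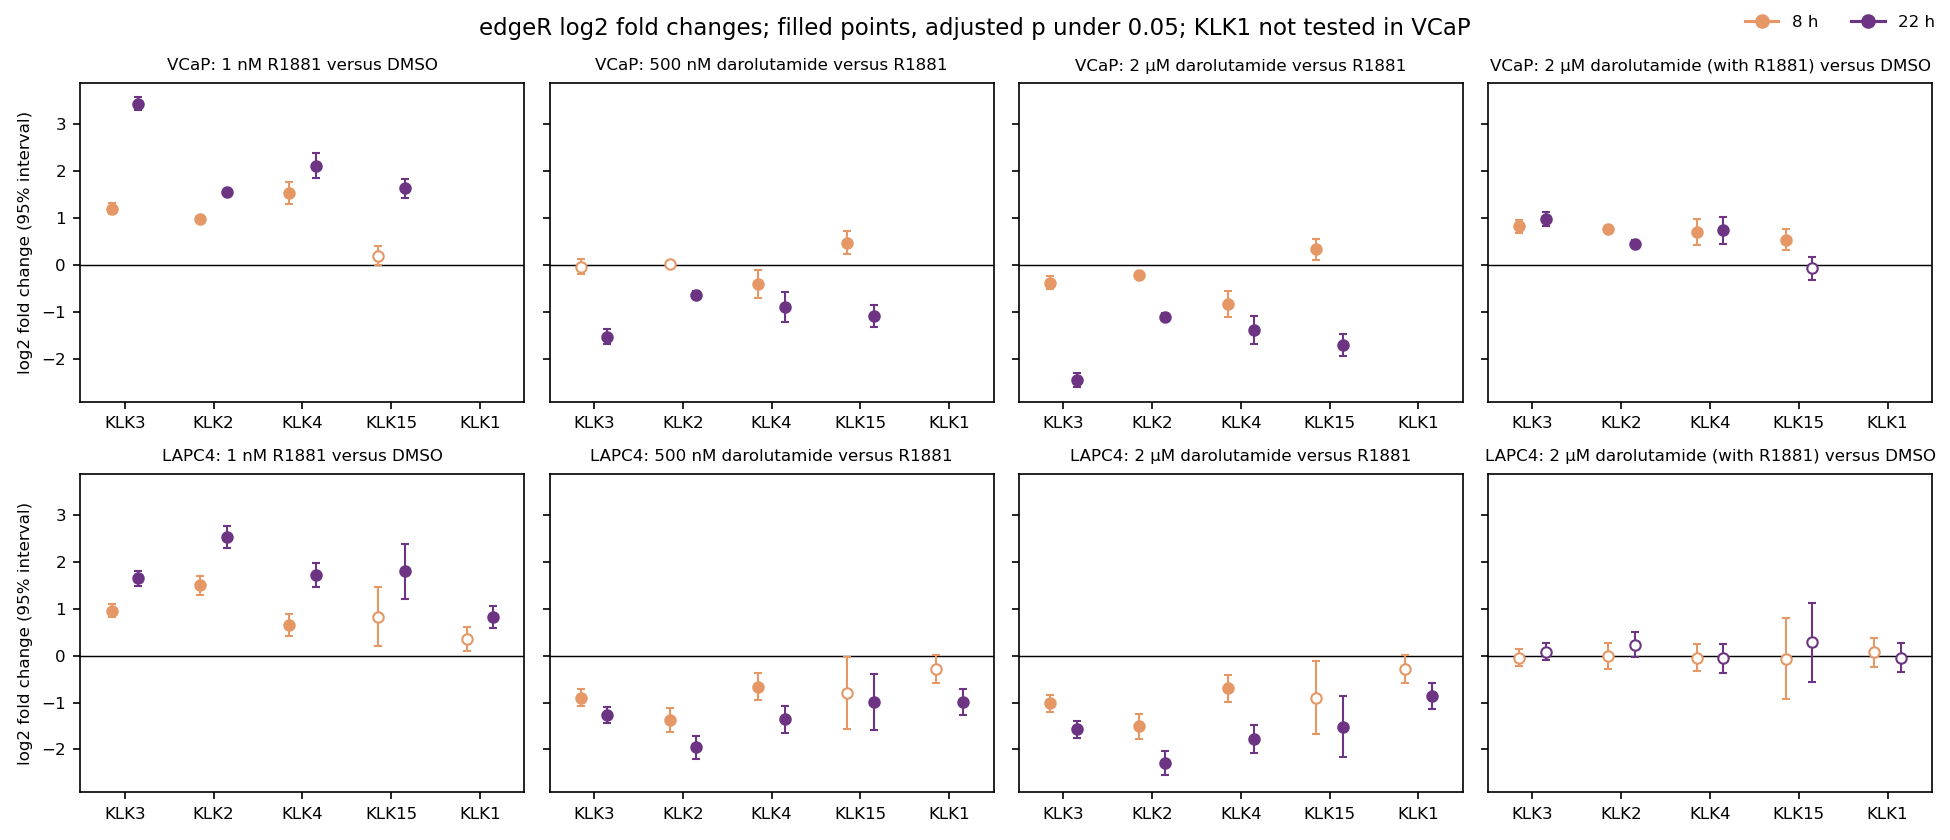
Log2 fold changes of the tested members for R1881 against DMSO, for each darolutamide dose against R1881 and for 2 µM darolutamide with R1881 against DMSO, with 95% intervals from the edgeR fit, by line and time. Filled points have an adjusted p under 0.05 and open points do not, and the points of KLK15 in LAPC4 are a description because it passed the read minimum only through R1881 at 22 h. In VCaP at 22 h KLK3 has the largest change in each comparison (3.44 with R1881 against DMSO), and in LAPC4 at 22 h KLK2 does in the comparisons of R1881 with DMSO (2.53) and of each dose with R1881.

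KLK3, the prostate-specific antigen, was low in VCaP without androgen and rose mainly after 8 h. The vehicle libraries held 14.2 to 18.8 CPM at 8 h (median 16.9) and 14.9 to 20.0 CPM at 22 h (median 17.8). With R1881 they held 33.5 to 46.9 CPM at 8 h (median 37.6) and 177 to 204 CPM at 22 h (median 190.0). Every R1881 library lay above every vehicle library of its time, and the 22 h libraries with R1881 lay far above all other VCaP groups. KLK3 rose 2.30-fold at 8 h (log2 change 1.20 ± 0.06 SE, edgeR adjusted p = 1.63e-25) and 10.8-fold at 22 h (3.44 ± 0.07, 4.07e-45). The change at 22 h exceeded that at 8 h by 2.24 ± 0.09 on the log2 scale (edgeR adjusted p = 1.22e-29), while the vehicle level did not differ detectably between the times (0.07, 95% interval -0.06 to 0.20).

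With 500 nM darolutamide at 8 h the 4 VCaP libraries held 35.1, 38.3, 38.7 and 38.9 CPM of KLK3, within the range of R1881 alone. With 2 µM at 8 h the 5 libraries held 29.6, 25.4, 37.5, 29.0 and 27.0 CPM, and 4 of them lay below every R1881 library. The log2 change against R1881 was -0.03 at 500 nM (95% interval -0.18 to 0.12) and -0.38 ± 0.07 at 2 µM (edgeR adjusted p = 7.55e-06). By 22 h both doses lowered KLK3, to 63.6, 62.2, 64.0 and 74.6 CPM at 500 nM and to 35.0, 34.8, 35.3, 35.5 and 33.5 CPM at 2 µM. The 3 groups did not overlap, and the lowest 2 µM library was still above the highest vehicle library of 20.0 CPM. KLK3 fell by 1.53 ± 0.08 at 500 nM and by 2.46 ± 0.07 at 2 µM on the log2 scale (edgeR adjusted p = 1.89e-24 and 4.81e-35). Both doses are set against the same R1881 libraries. The 2 µM libraries remained 1.97-fold above DMSO (0.98 ± 0.07, edgeR adjusted p = 3.08e-17).

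In LAPC4 KLK3 began at a similar level and rose less. It held 9.44 to 15.6 CPM in vehicle at 8 h (median 12.7), 20.1 to 28.2 with R1881 at 8 h (median 24.2), 12.7 to 15.96 in vehicle at 22 h (median 14.5) and 35.8 to 53.2 with R1881 at 22 h (median 45.2). The groups with and without R1881 did not overlap at either time. KLK3 rose 1.95-fold at 8 h (log2 change 0.96 ± 0.07 SE, edgeR adjusted p = 9.75e-16) and 3.15-fold at 22 h (1.65 ± 0.08, 3.18e-24). With 500 nM darolutamide it held 12.8, 13.5, 13.9, 11.8 and 12.7 CPM at 8 h and 20.7, 18.0, 18.2, 16.8 and 19.5 CPM at 22 h. With 2 µM it held 13.01, 10.4, 12.2, 12.1 and 12.1 CPM at 8 h and 14.0, 15.6, 15.6, 13.3 and 17.3 CPM at 22 h. The 8 h values of both doses lay inside the vehicle range, and at 22 h all 500 nM libraries lay just above the vehicle range while 4 of 5 at 2 µM lay within it. Against R1881 KLK3 fell by 0.89 ± 0.09 and 1.01 ± 0.09 at 8 h and by 1.27 ± 0.09 and 1.57 ± 0.09 at 22 h (log2, 500 nM then 2 µM, all edgeR adjusted p at or below 2.01e-10).

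KLK2, the close relative of KLK3, was among the most abundant transcripts of VCaP and changed there by smaller factors. It held 2349 to 2706 CPM in vehicle at 8 h (median 2445), 4602 to 5087 with R1881 at 8 h (median 4853), 2588 to 3023 in vehicle at 22 h (median 2952) and 8159 to 8743 with R1881 at 22 h (median 8532). The spread inside a group was small, and no R1881 library overlapped the vehicle libraries of its time. KLK2 rose 1.98-fold at 8 h (log2 change 0.98 ± 0.03 SE, edgeR adjusted p = 1.96e-37) and 2.94-fold at 22 h (1.56 ± 0.03, 5.01e-45). KLK2 was also 1.18-fold higher in vehicle at 22 h than at 8 h (0.23 ± 0.03, edgeR adjusted p = 1.75e-09), the only tested member of VCaP called between the vehicle groups (29.8% of genes were called).

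Darolutamide at 500 nM left KLK2 in VCaP at 8 h at 4799.8, 4799.4, 5168 and 4912 CPM, a change of 0.02 on the log2 scale (95% interval -0.05 to 0.09). At 2 µM the values were 4302, 3798, 4329, 4148 and 4212 CPM, all below the R1881 range, and KLK2 fell by 0.23 ± 0.03 (edgeR adjusted p = 6.40e-08). At 22 h they were 5374, 5354, 5496 and 5682 CPM at 500 nM and 4183, 3978, 3759, 4082 and 3814 CPM at 2 µM. The 4 treatments at 22 h did not overlap, in the order R1881, 500 nM, 2 µM and DMSO. KLK2 fell by 0.64 ± 0.04 at 500 nM and by 1.10 ± 0.04 at 2 µM against R1881 (edgeR adjusted p = 1.53e-21 and 4.69e-34), and at 2 µM it stayed 1.37-fold above DMSO (0.45 ± 0.03, 3.01e-17).

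In LAPC4 the same gene was scarce and had the largest response of the family. It held 2.41 to 4.57 CPM in vehicle at 8 h (median 3.80) and 8.30 to 15.0 with R1881 (median 9.87), and at 22 h 4.10 to 5.86 (median 4.73) and 22.5 to 33.8 CPM (median 27.7). These are 54 to 123 reads per vehicle library and 395 to 715 reads per library with R1881 at 22 h. KLK2 rose 2.83-fold at 8 h (log2 change 1.499 ± 0.10 SE, edgeR adjusted p = 4.53e-17) and 5.78-fold at 22 h (2.53 ± 0.11, 6.81e-26), with no overlap of the groups. With darolutamide it held 4.11, 4.19, 4.29, 3.67 and 3.73 CPM (500 nM) and 3.82, 2.62, 3.89, 3.88 and 4.15 CPM (2 µM) at 8 h. At 22 h it held 7.03, 7.17, 6.60, 6.58 and 8.14 CPM at 500 nM, all above the vehicle range, and 4.88, 4.72, 7.50, 5.87 and 5.05 CPM at 2 µM, of which 3 lay inside it. Against R1881 at 8 h KLK2 fell by 1.38 ± 0.13 with 500 nM on the log2 scale, and with 2 µM it fell by 1.505 ± 0.13, and at 22 h it fell by 1.95 ± 0.12 and fell by 2.30 ± 0.13 (all edgeR adjusted p at or below 2.80e-11).

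The effect of R1881 on KLK3 and KLK2 differed between the lines in opposite directions. At 22 h the log2 change of KLK3 was 1.73 ± 0.10 larger in VCaP than in LAPC4 (edgeR adjusted p = 5.03e-32), and that of KLK2 was 1.03 ± 0.10 smaller (difference -1.03, 1.35e-17). At 8 h KLK2 again changed less in VCaP (-0.60 ± 0.09, 2.69e-08), and for KLK3 the difference was 0.15 (95% interval -0.03 to 0.33). KLK4 changed more in VCaP at 8 h (0.80 ± 0.16, 8.46e-06) and by 0.35 ± 0.17 more at 22 h, which did not pass (edgeR adjusted p = 0.065). With the first principal component of the deviations within groups as a covariate it passed (0.36 ± 0.07, edgeR adjusted p = 4.44e-06). That component was taken from the deviations of these same libraries, so the smaller SE is no separate support. KLK15 differed by -0.71 ± 0.29 at 8 h (edgeR adjusted p = 0.033), but this call was lost with DESeq2 (adjusted p = 0.053) and without the filter on low counts (0.112). Its difference at 22 h, -0.22 ± 0.26, is a description, since R1881 at 22 h in LAPC4 let it pass the read minimum. With KLK15 left out, KLK2 and KLK4 were called at 8 h (58.5% of 16578 genes were) and KLK2 and KLK3 at 22 h (68.5%). Calls were thus common among all genes, and the size and direction of the named differences are what the comparison gives.

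The level of KLK2 relative to KLK3 moved accordingly. In VCaP the KLK2 RPKM was 121 times the KLK3 RPKM in vehicle at 22 h (median, range 108 to 129) and 32.5 times with R1881 (31.1 to 35.3). With darolutamide the ratio was 62.2 at 500 nM (55.6 to 62.9) and 83.5 at 2 µM (77.9 to 87.3), between the ranges of R1881 and vehicle and overlapping neither. In LAPC4 the ratio was below 1 in every group, and it rose with R1881, from 0.246 (0.191 to 0.295) to 0.453 (0.406 to 0.496) at 22 h. It was 0.285 at 500 nM and 0.254 at 2 µM. At 8 h the median ratio in VCaP was 108 in vehicle and 95.7 with R1881, with overlapping ranges, and in LAPC4 0.227 and 0.321, which also overlapped.

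**Figure D3:**
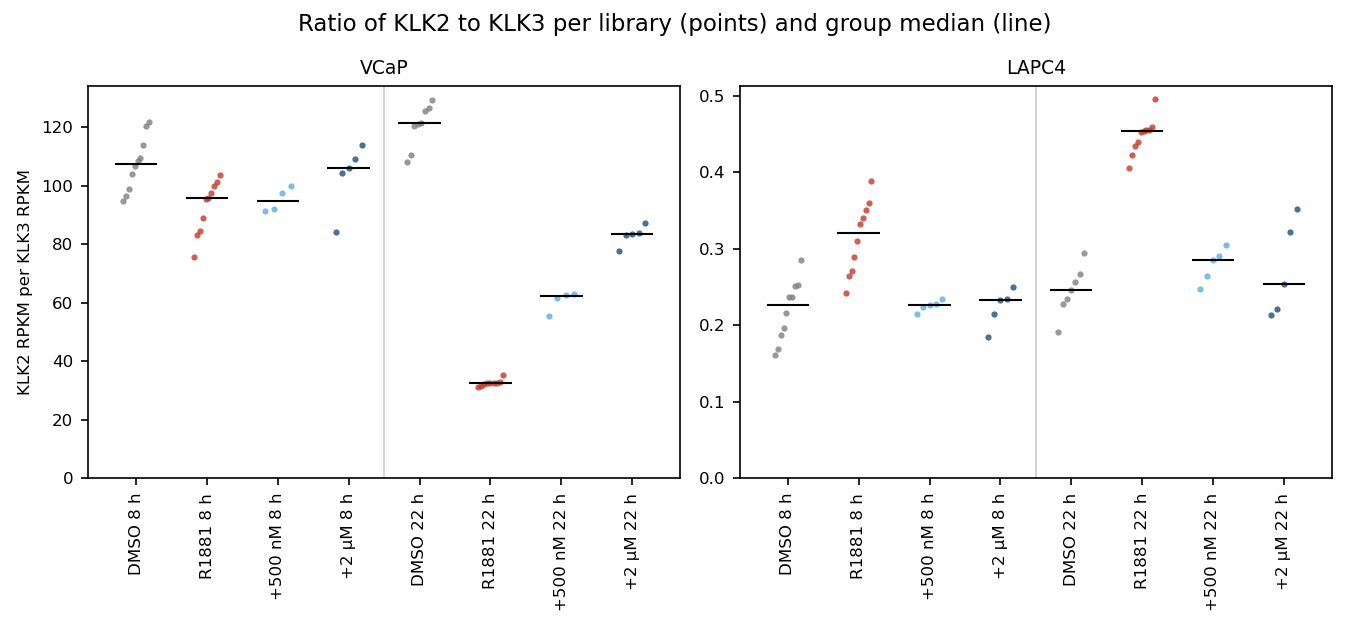
Ratio of KLK2 to KLK3 in each library, as RPKM over RPKM on a linear axis from 0 that differs between the lines, by treatment and time. Points are libraries and black lines are group medians. At 22 h R1881 lowers the ratio in VCaP (median 121 to 32.5) and raises it in LAPC4 (0.246 to 0.453), and in VCaP at 22 h the darolutamide libraries lie between those groups (medians 62.2 and 83.5).

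KLK4, a trypsin-like protease first described in prostate and also needed for tooth enamel, rose in both lines with more spread between libraries than KLK2 or KLK3. In VCaP it held 58.4 to 116 CPM in vehicle at 8 h (median 88.2), 172 to 345 with R1881 at 8 h (median 239), 53.8 to 106 in vehicle at 22 h (median 84.9) and 255 to 454 with R1881 at 22 h (median 362). The groups with R1881 did not overlap the vehicle groups, but they overlapped each other across the times. KLK4 rose 2.91-fold at 8 h (log2 change 1.54 ± 0.12 SE, edgeR adjusted p = 7.34e-18) and 4.34-fold at 22 h (2.12 ± 0.13, 9.86e-22). Darolutamide at 500 nM left 154, 197, 193 and 206 CPM at 8 h and 198, 185, 179.5 and 222 CPM at 22 h. At 2 µM the values were 150.01, 116, 173, 134 and 122 CPM at 8 h and 146, 137, 151, 139 and 128 CPM at 22 h. All libraries with darolutamide at 22 h lay below the R1881 range and above the vehicle range. The falls against R1881 were 0.40 ± 0.15 (edgeR adjusted p = 0.034) and 0.83 ± 0.14 (1.31e-06) at 8 h, and 0.90 ± 0.16 and 1.38 ± 0.15 at 22 h (2.00e-06 and 3.18e-12).

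The call of KLK4 at 500 nM and 8 h in VCaP was lost without replicate 1, 2 or 3 of that group (adjusted p = 0.162, 0.054 and 0.060) and with control replicates 1 to 5 alone (0.128). The difference of its R1881 effect between the times, 0.58 ± 0.17 (edgeR adjusted p = 0.0025), was lost with the same controls (0.099). The deviations of KLK4 from its group means followed the first principal component of all deviations within groups. The absolute value of r was 0.936 over the 55 VCaP libraries and 0.910 over the 57 LAPC4 libraries. For KLK3 this absolute value was 0.596 and 0.579, and for KLK2 0.418 and 0.405, and the signs are not given. The libraries of a group are shared by all these values, they are given as a description, and the part of this component in the results was not tested beyond a fit that has it as a covariate.

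In LAPC4 KLK4 was the most abundant member per length. It held 11.8 to 21.7 CPM in vehicle at 8 h (median 17.0), 21.7 to 31.3 with R1881 at 8 h (median 26.4), 15.3 to 24.4 in vehicle at 22 h (median 19.7) and 49.7 to 85.2 with R1881 at 22 h (median 61.1). The 8 h groups nearly met at 21.7 CPM, and the 22 h groups stood well apart. KLK4 rose 1.58-fold at 8 h (log2 change 0.66 ± 0.11 SE, edgeR adjusted p = 5.58e-05) and 3.28-fold at 22 h (1.72 ± 0.13, 2.13e-16), and the difference of 1.06 ± 0.17 between the times passed the test (1.62e-05). With darolutamide its 10 libraries at 8 h held 11.8 to 22.2 CPM and its 10 libraries at 22 h 13.8 to 28.8 CPM, against which the highest vehicle libraries held 21.7 and 24.4 CPM. It fell by 0.66 ± 0.14 and 0.70 ± 0.14 at 8 h (edgeR adjusted p = 0.0062 and 0.0013) and by 1.36 ± 0.14 and 1.77 ± 0.15 at 22 h (1.07e-10 and 1.55e-14, 500 nM then 2 µM). The 8 h calls were the weaker ones: R1881 was not called with control replicates 6 and above (adjusted p = 0.153), and 500 nM not with control replicates 1 to 5 (0.085) nor without its replicate 2 (0.059).

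KLK15, a trypsin-like protease that can activate the KLK3 precursor, was rare in VCaP, with 30 to 142 reads per library, and differed from the other members at 8 h. It held 1.68 to 2.62 CPM in vehicle (median 1.97) and 1.74 to 3.06 CPM with R1881 (median 2.41) at 8 h, and the groups overlapped (log2 change 0.20 ± 0.10 SE, edgeR adjusted p = 0.065). With R1881 and 500 nM darolutamide it held 3.51, 3.09, 3.10 and 3.63 CPM, all above the highest R1881 library, and with 2 µM it held 3.83, 2.97, 2.81, 2.82 and 2.78 CPM. Against R1881 it rose by 0.47 ± 0.12 (edgeR adjusted p = 0.0015) and 0.34 ± 0.11 (0.0095), while KLK2, KLK3 and KLK4 fell at 2 µM. The 2 µM call was lost without replicate 1 of that group (0.24 ± 0.12, adjusted p = 0.082). With a block for same-numbered replicates, which did not deviate together, both calls were lost (edgeR adjusted p = 0.061 at 500 nM and 0.087 at 2 µM). Since KLK15 overlaps a gene on the other strand, the share of its reads that come from KLK15 is uncertain.

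At 22 h KLK15 moved with the other members. It held 1.67 to 2.91 CPM in vehicle (median 1.91) and 5.92 to 7.39 CPM with R1881 (median 6.58), then 3.004, 3.40, 3.02 and 2.89 CPM at 500 nM and 2.43, 2.21, 1.81, 1.96 and 1.59 CPM at 2 µM. The R1881 libraries stood clear of all others, and the 2 µM libraries lay within or just below the vehicle range. It rose 3.10-fold with R1881 (log2 change 1.63 ± 0.10 SE, edgeR adjusted p = 6.33e-22), and 1.43 ± 0.14 more than at 8 h (2.33e-13). It fell by 1.09 ± 0.12 at 500 nM (1.12e-11) and by 1.71 ± 0.11 at 2 µM (edgeR adjusted p = 1.06e-19). In LAPC4 KLK15 had 0 to 21 reads per library. Its vehicle libraries at 22 h held 0.0952 to 0.314 CPM (median 0.2002) and its R1881 libraries 0.342 to 1.33 CPM (median 0.724), and the fitted log2 difference was 1.80 ± 0.30. Against R1881 at 22 h it was -0.99 ± 0.30 at 500 nM and -1.51 ± 0.32 at 2 µM. These values at 22 h are given with no test, since the R1881 libraries at 22 h were the ones that let the gene pass the read minimum. At 8 h the difference between R1881 and vehicle was 0.83 ± 0.32, which was not called (edgeR adjusted p = 0.228).

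KLK1, tissue kallikrein, was measurable in LAPC4 only, with 12 to 84 reads per library, against 0 to 2 in VCaP. In LAPC4 it held 0.760 to 1.45 CPM in vehicle at 8 h (median 1.18) and 0.982 to 2.26 with R1881 (median 1.46), which overlapped (log2 change 0.35 ± 0.12 SE, edgeR adjusted p = 0.162). At 22 h it held 1.14 to 2.05 CPM in vehicle (median 1.67) and 2.30 to 3.61 with R1881 (median 2.96), without overlap. It rose 1.77-fold (0.82 ± 0.12, edgeR adjusted p = 2.73e-07), the smallest change among the 5 members of LAPC4 at that time. With darolutamide at 22 h it held 1.69, 1.14, 1.61, 1.08 and 1.62 CPM (500 nM) and 1.57, 1.75, 1.62, 1.30 and 1.70 CPM (2 µM), all below the R1881 range. It fell by 1.00 ± 0.14 and 0.86 ± 0.14 (edgeR adjusted p = 2.76e-07 and 2.28e-06). KLK1 was also 1.42-fold higher in vehicle at 22 h than at 8 h (0.50 ± 0.13, edgeR adjusted p = 0.0031), as was KLK2 in LAPC4 (1.30-fold, 0.38 ± 0.12, 0.014), 2 of 4 members where 22.1% of genes were called. Both vehicle calls were lost with the control replicates 6 and above (0.27 ± 0.25 and 0.26 ± 0.18, edgeR adjusted p = 0.566 and 0.416). The LAPC4 vehicle group at 22 h holds 7 libraries, so few of them are in that subset. In VCaP the summed KLK1 reads were 2 in the 8 vehicle and 11 in the 9 R1881 libraries at 22 h, and 2 in each darolutamide group.

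KLK10 and KLK11 were near the limit of detection. KLK10 had 0 to 11 reads per library in VCaP (200 in all 55 libraries) and 0 to 2 in LAPC4 (12 in 57). KLK11 had 0 to 10 in VCaP (69 in all) and 0 to 9 in LAPC4 (102 in all). At 22 h in VCaP KLK11 had 1 read in 8 vehicle libraries, 8 in 9 with R1881, 8 in 4 with 500 nM and 19 in 5 with 2 µM darolutamide. Each of the 5 libraries with 2 µM had 2 to 6 reads and 7 of 8 vehicle libraries had none. At 8 h in VCaP KLK11 had 8 reads in 10 vehicle libraries, 17 in 10 with R1881, 3 in 4 with 500 nM and 5 in 5 with 2 µM. At these counts neither gene can be said to change or not to change with any treatment.

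Of the darolutamide comparisons, those at 22 h called lower than R1881 each of the 4 members counted in each line. In VCaP at 22 h 4 of 4 members fell at 500 nM (26.4% of genes were called lower) and 4 of 4 at 2 µM (30.8%). In LAPC4 at 22 h 4 of 4 fell at 500 nM (3.21%) and 4 of 4 at 2 µM (5.47%). At 8 h 3 of 4 fell in LAPC4 at each dose (0.489% at 500 nM and 1.08% at 2 µM), and KLK1 was not called. In VCaP at 8 h 1 fell and 1 rose at 500 nM (15.7% of genes fell and 14.9% rose), and 3 fell and 1 rose at 2 µM (26.2% and 25.9%). The median log2 change of the members at 22 h was -0.99 at 500 nM and -1.54 at 2 µM in VCaP, against 0.01 and 0.06 over all genes, and -1.31 and -1.67 in LAPC4, against 0.01 and 0.00. At 8 h the medians were -0.01 and -0.30 in VCaP and -0.78 and -0.85 in LAPC4.

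To set members with unlike responses side by side, each darolutamide library was placed between the R1881 mean (0%) and the DMSO mean (100%) on the log2 CPM scale. For VCaP at 22 h, the 4 libraries with 500 nM had a mean of 44.6% ± 3.495 (SD) for KLK3, and the 5 libraries with 2 µM a mean of 71.4% ± 0.969. KLK2 lay at 40.9% ± 2.53 and 70.9% ± 4.16, and KLK4 at 41.4% ± 6.45 and 64.1% ± 4.28. KLK15 stood further, at 66.4% ± 6.09 and 104% ± 14.2. The ranges of KLK2 and KLK3 overlapped at both doses on this scale, although their fold changes differed. On a linear CPM scale the value of KLK3 was 72.1% in place of 44.6% at 500 nM and 90.1% at 2 µM. For KLK2 the linear values were 54.0% and 81.0%, further from those of KLK3 than on the log2 scale. The share and the likeness of these genes thus depend on the scale chosen.

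In LAPC4 the means of KLK2, KLK3 and KLK4 lay closer to vehicle than in VCaP at both times and doses. Those of KLK15 at 22 h did not, but they are a description, since they rest on the R1881 libraries that let it pass the read minimum. At 8 h KLK3 stood at 91.7% ± 9.23 and 104% ± 12.5 (SD, n = 5 each, 500 nM then 2 µM) and KLK2 at 90.7% ± 6.77 and 99.7% ± 17.5. With only replicates 1 to 5 of DMSO and R1881, KLK3 stood at 76.9% and 87.5%, and KLK2 at 83.8% with 500 nM. The SD covers the darolutamide libraries only. In VCaP at 8 h KLK3 stood at 2.37% ± 5.91 and 32.3% ± 17.8, and KLK2 at -1.79% ± 5.11 and 23.0% ± 7.75. The libraries of the lines did not overlap at 8 h for KLK2 or KLK3. For KLK4 they overlapped at both doses, with 24.9% ± 12.3 and 53.1% ± 15.1 in VCaP and 101% ± 42.3 and 109.5% ± 57.2 in LAPC4. At 22 h in LAPC4 KLK3 stood at 76.4% ± 6.93 and 94.6% ± 8.95, KLK2 at 77.2% ± 4.92 and 91.3% ± 10.8, KLK4 at 78.4% ± 9.66 and 104% ± 19.5, KLK15 at 57.1% ± 18.2 and 84.8% ± 16.9, and KLK1 at 123% ± 36.5 and 103% ± 19.7. No test of this share between the lines was run, and the R1881 effects that it divides by differ between them.

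**Figure D4:**
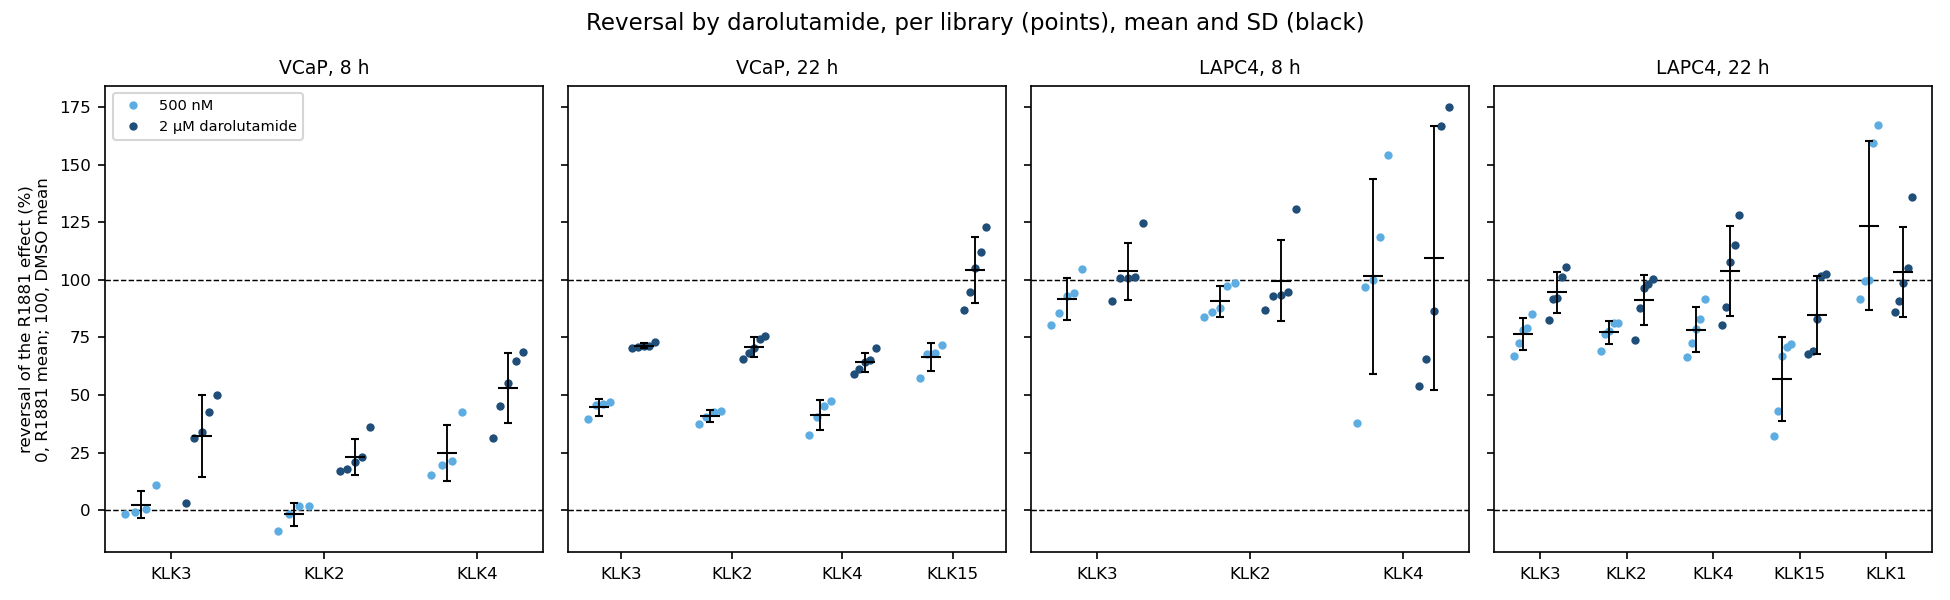
Position of each darolutamide library between the R1881 mean (0%) and the DMSO mean (100%) of its line and time, on the log2 CPM scale, for members called with R1881 with a log2 change above 0.5. The points of KLK15 in LAPC4 are a description because it passed the read minimum only through R1881 at 22 h. Points are libraries and black marks are the mean and SD. VCaP libraries at 8 h lie near R1881 for KLK2 and KLK3 with 500 nM (-1.79% and 2.37%), and LAPC4 libraries at 8 h with the same dose lie near vehicle (90.7% and 91.7%). With only replicates 1 to 5 of DMSO and R1881 the LAPC4 values are 83.8% and 76.9%.

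The higher dose lowered the members further in VCaP at 22 h, while in LAPC4 no member was called between the doses in the reported fit. Whether the dose difference itself differed between the lines was not tested. Between 2 µM and 500 nM at 22 h in VCaP 4 of 4 members were lower at 2 µM (9.75% of genes were), by 0.93 ± 0.08 for KLK3 (edgeR adjusted p = 1.61e-13), 0.47 ± 0.04 for KLK2 (6.00e-14), 0.62 ± 0.14 for KLK15 (6.12e-04) and 0.49 ± 0.17 for KLK4 (0.030). The KLK4 call was lost without replicate 2, 4 or 5 of the 2 µM group or replicate 4 of the 500 nM group (adjusted p from 0.059 to 0.080). At 8 h KLK3 (0.34 ± 0.09 lower, edgeR adjusted p = 0.0019) and KLK2 (0.24 ± 0.04 lower, 4.41e-06) were called, 2 of 4 against 10.0% of genes. KLK4 was 0.43 ± 0.17 lower (0.069), and it passed with the first principal component as a covariate (-0.43 ± 0.06, 3.44e-09), without replicate 3 of 2 µM (0.032) and without replicate 1 of 500 nM (0.043). In LAPC4 edgeR called 0 of 4 members at 8 h (0.0275% of genes) and 0 of 4 at 22 h (0.258%). DESeq2 also called none, and at an unadjusted p under 0.05 there were 0 members at 8 h and 3 at 22 h. The differences of those 3 at 22 h were -0.30 for KLK3 (95% interval -0.50 to -0.10), -0.34 for KLK2 (-0.63 to -0.05) and -0.42 for KLK4 (-0.74 to -0.09). The intervals of KLK2 and KLK4 hold the differences that these genes had in VCaP at 22 h, and that of KLK3 does not. With the first component as a covariate KLK3 and KLK4 passed (adjusted p = 0.027 and 1.73e-05). The component was taken from the deviations of the same libraries, which KLK4 follows closely, so passing with it is no separate support in either line.

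Against DMSO, 2 µM darolutamide with R1881 left KLK2, KLK3 and KLK4 above vehicle in VCaP at both times. KLK15 was above vehicle at 8 h only, where it was not called with R1881 alone (edgeR adjusted p = 0.065). At 8 h 4 of 4 members were higher (15.4% of genes were). The log2 differences were 0.82 ± 0.07 for KLK3, 0.76 ± 0.03 for KLK2, 0.71 ± 0.14 for KLK4 and 0.54 ± 0.11 for KLK15, all at an edgeR adjusted p at or below 1.37e-04. At 22 h 3 of 4 were higher (30.5%), which were KLK3, KLK2 and KLK4 (0.74 ± 0.14, 1.40e-05), and KLK15 differed by -0.07 (95% interval -0.33 to 0.18). In LAPC4 edgeR called 0 of 4 members at 8 h (0.0110% of genes) and 0 of 4 at 22 h (0.0165%), and so did DESeq2, with 0 at an unadjusted p under 0.05 at either time. The 95% intervals of the log2 difference at 22 h were -0.10 to 0.28 for KLK3, -0.04 to 0.51 for KLK2, -0.36 to 0.24 for KLK4, -0.34 to 0.26 for KLK1 and -0.56 to 1.13 for KLK15. The interval of KLK2 holds the difference of 0.45 that this gene had in VCaP, and those of KLK3 and KLK4 do not hold theirs (0.98 and 0.74).

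Between the times the R1881 effect grew in 4 of 4 members of VCaP (28.1% of genes had a higher effect at 22 h) and in 3 of 4 of LAPC4 (1.80%). KLK2 gained 0.57 ± 0.04 in VCaP and 1.03 ± 0.15 in LAPC4, with edgeR adjusted p = 1.13e-18 and 2.17e-06. KLK3 gained 0.69 ± 0.11 in LAPC4 (6.28e-06), a call that was narrowly lost with control replicates 1 to 5 (0.42 ± 0.12, edgeR adjusted p = 0.0503). KLK1 was not called in LAPC4 (0.47 ± 0.17, edgeR adjusted p = 0.159).

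The rest of the family, 9 further kallikrein genes and pseudogenes of the cluster and the plasma kallikrein gene KLKB1 on chromosome 4, was mostly silent. Of these 10 genes, 3 were tested in VCaP (KLKP1, KLK12 and KLK14) and 1 in LAPC4 (KLKP1). KLKP1, a pseudogene that lies between KLK2 and KLK4, followed the members. Its median in VCaP went from 1.41 CPM in vehicle to 5.85 CPM with R1881 at 22 h (log2 change 2.06 ± 0.11 SE, edgeR adjusted p = 1.97e-23) and to 2.54 and 1.93 CPM with 500 nM and 2 µM darolutamide. In LAPC4 10 of its 14 libraries with 10 reads or more were those with R1881 at 22 h, and its values are a description, with a log2 difference of 1.60 ± 0.28 from vehicle at 22 h and of -1.32 ± 0.31 and -1.14 ± 0.30 between each dose and R1881. KLK12 in VCaP had a median of 3 reads per library in vehicle and with R1881 at 22 h and of 12 with 2 µM darolutamide. It reached 10 reads in 6 libraries, 3 of them in this last group, without which it would not have been tested, so its difference is given as reads with no test. KLK14 had 0 to 14 reads per library in VCaP with 10 or more in 7 of them.

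The genes around the kallikreins in prostate secretion were taken from a list of 37 inhibitors, substrates, receptors and other secreted proteins. In VCaP 18 of them had enough reads to be tested, and in LAPC4 15 did. In VCaP at 22 h with R1881, 9 of 18 rose and 8 fell, against 37.4% and 40.0% of all genes. The secreted prostate proteins rose (4 of 4), among them AZGP1 (log2 change 3.67 ± 0.11 SE), MSMB (2.85 ± 0.30) and CRISP3 (1.60 ± 0.04). Of 6 substrates 5 fell, which were the growth factor carrier IGFBP3 (-6.98 ± 0.08), the growth factor HGF (-5.23 ± 0.12), fibronectin FN1 (-3.76 ± 0.14), IGFBP5 (-2.95 ± 0.15) and plasminogen PLG (-1.28 ± 0.26). The receptors split, with F2RL1, a receptor cut by trypsin-like proteases, up by 1.26 ± 0.04 and the thrombin receptor F2R down (-1.19 ± 0.05). The inhibitors split too, with 4 of 6 higher, such as SERPINA1 (1.23 ± 0.13), and SPINK5 (-1.62 ± 0.11) and SPINK1 (-1.08 ± 0.29) lower. All of these had an edgeR adjusted p at or below 8.18e-04. With 2 µM darolutamide against R1881 at 22 h 5 of 6 substrates were higher and 4 of 4 secreted proteins lower, against 36.1% and 30.8% of all genes, for example IGFBP3 (4.42 ± 0.09) and AZGP1 (-2.53 ± 0.12). In LAPC4 at 22 h 3 of 15 listed genes rose with R1881 and 4 fell, against 6.83% and 6.45% of all genes, none by more than 1 on the log2 scale. In VCaP PLAU, which is counted among the substrates, passed the read minimum only through R1881 at 8 h, and 9 of the 13 libraries with 10 reads or more of MSMB were those with R1881 at 22 h.

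With the members left out of the ranking, over the 8 group means of VCaP the genes whose log2 CPM pattern was most like that of KLK2 were HOMER2, PPM1H and ALDH1A3 (r = 0.996, 0.995 and 0.995), out of 2593 genes with a span of at least 1 on the log2 scale. For KLK3 they were STYK1, BAIAP2-AS1 and MLX (r = 0.993, 0.993 and 0.991). In LAPC4 the same genes, PDE9A, PRICKLE1 and PARM1, were most like both KLK2 (r = 0.991, 0.989 and 0.989) and KLK3 (r = 0.995, 0.991 and 0.990), out of 311 genes with a span of at least 0.5. Between the members, r of KLK3 and KLK2 was 0.961 in VCaP and 0.999 in LAPC4, and KLK15 was least like KLK4 in VCaP (0.781). These 8 means share libraries, treatments and depth between genes, and are given as a description. In bulk RNA a larger share of cells that express a kallikrein and more RNA per cell cannot be told apart.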

How the data were processed

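RNA from 112 libraries was purified on RNeasy columns, selected with poly-T beads and prepared with a TruSeq Stranded mRNA kit, and 50-base single-end reads were sequenced on a HiSeq2500. Per the study's methods the authors aligned reads to GRCh38 with STAR and deposited raw read counts per gene from featureCounts; the annotation, strand setting and handling of multiply mapped reads are not given in the sources used here. The table lists 58684 genes, and libraries hold 12188455 to 25201678 reads (median 20144050), which limits members with few reads.

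From these counts, each line was fitted on its own over its 8 groups with edgeR 4.0.16 (TMM scaling, quasi-likelihood test, R 4.3.3), and a gene was kept where 4 or more libraries held 10 reads or more of it (19266 genes in VCaP, 18204 in LAPC4). Differences between lines used a joint fit of 16578 genes. P-values were adjusted by the Benjamini-Hochberg method over all genes of a fit, with a threshold of 0.05. Folds are model fits, and log2 CPM for the share of the R1881 effect used a prior count of 2, for members called with R1881 and an absolute log2 change above 0.5. The members and lists were chosen with earlier results of these data known. All 7 members are named, and list genes are named where they were called with an absolute log2 change above 1, or are kallikreins. Genes of like pattern are the 3 with the highest r over the 8 group means, among genes above the median level that are no member. Alternatives were DESeq2 1.42.0, no filter on low counts, subsets of the control replicates, the first component as a covariate, a fit of the compared groups alone, a replicate block, each replicate left out and a linear CPM scale. On simulated counts for R1881 against DMSO at 22 h, changes of 0.5 and 1 on the log2 scale were recovered at 76.5% and 98.0% in VCaP, with 3.93% of calls false (18715 genes), and at 67.7% and 94.9% in LAPC4, with 7.51% false (17954 genes). The simulated counts were drawn independently with the same dispersion for every gene, so these rates need not hold for members that spread more. No 2 libraries of a group agreed within counting noise, the lowest chi-square per gene being 1.52. Upstream and promoter sequences came from RefSeq and gene positions from GENCODE 44. A luminal marker of the planned list is not reported here.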

Additional observations from a re-analysis of the deposited data

Results flagged for a closer look

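In groups of 4 to 10 libraries, 6 of the 72 sets of values tested (a member in a group) held a library far from its group by Dixon's test, which chance does in about 1 in 20 groups. In VCaP they were replicate 1 of 2 µM darolutamide at 8 h for KLK15 (3.83 CPM), replicate 1 of 500 nM at 8 h (35.1 CPM) and replicate 4 of 500 nM at 22 h (74.6 CPM) for KLK3, and replicate 4 of DMSO at 8 h for KLK2 (2706 CPM). In LAPC4 they were replicate 8 of R1881 at 8 h (15.0 CPM) and replicate 2 of 2 µM at 8 h (2.62 CPM), both for KLK2.

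The R1881 effect differed between 22 and 8 h in VCaP by 2.24 for KLK3, 1.43 for KLK15, 0.58 for KLK4 and 0.57 for KLK2 on the log2 scale, and in LAPC4 by 1.06 for KLK4, 1.03 for KLK2 and 0.69 for KLK3. Between the lines (VCaP minus LAPC4) it differed at 8 h by 0.80 for KLK4, -0.60 for KLK2 and -0.71 for KLK15. At 22 h it differed by 1.73 for KLK3 and -1.03 for KLK2. The KLK15 call was lost with DESeq2 and without the filter on low counts. Between the times, the calls of KLK4 in VCaP and of KLK3 in LAPC4 were lost with control replicates 1 to 5.

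KLK11, which had too few reads to be tested, had 8 reads in the 4 VCaP libraries with 500 nM and 19 in the 5 with 2 µM darolutamide at 22 h, against 1 read in the 8 vehicle libraries.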

How the results depend on the processing

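Most values kept their direction and their side of the threshold. Of the log2 changes of members under all alternatives, 1079 stayed so, 33 were no longer called, 12 became called and 37 changed sign. Of the counts of members called, 251 stayed within 1.5 times and 9 moved, and of the shares of the R1881 effect 189 stayed within 1 SD and 14 moved. The counts given here include KLK15 in LAPC4, whose log2 change at 500 nM and 22 h passed the threshold in the reported fit and did not without the filter, with either subset of the control replicates or with the compared groups alone (adjusted p from 0.059 to 0.136).

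The count for 500 nM darolutamide against R1881 at 8 h in VCaP went from 2 to 1 with control replicates 1 to 5 and with the compared groups alone, and leaving out 1 replicate gave 1 to 2. For 2 µM against 500 nM at 22 h in LAPC4 it went from 0 to 2 with the first component as a covariate, and for the LAPC4 vehicle groups from 2 to 4 with that covariate and to 0 with control replicates 6 and above. Without the filter on low counts, further members were called against groups with almost no reads: KLK1 with R1881 at 22 h and KLK11 with 2 µM against DMSO at 22 h in VCaP, and KLK1 and KLK10 between the lines.

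Same-numbered replicates did not deviate together, with a mean r of -0.005 over 149 pairs in VCaP and 0.055 over 161 in LAPC4, so they share only a number. With a replicate block the count for 500 nM against R1881 at 8 h in VCaP was 0 (KLK15 adjusted p = 0.061, KLK4 0.306), and KLK15 at 2 µM (0.087), KLK4 in LAPC4 at 8 h (0.458 at 500 nM and 0.062 at 2 µM) and KLK15 in LAPC4 at 500 nM and 22 h (0.151) were also lost, while KLK4 between the doses at 8 h in VCaP passed (0.041). For 2 µM against DMSO at 8 h in LAPC4 the block gave -0.0258 for KLK1, 0.38 for KLK15, 0.13 for KLK3, 0.10 for KLK2 and 0.10 for KLK4.

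All changes of sign were of log2 changes that were not called. With control replicates 1 to 5 they were KLK4 between the VCaP vehicle groups (0.13) and, for 2 µM against DMSO at 8 h in LAPC4, KLK1 (-0.0195), KLK15 (0.35), KLK3 (0.13), KLK2 (0.10) and KLK4 (0.13). With control replicates 6 and above they were KLK3 at 500 nM and 8 h in VCaP (0.0233) and KLK15 between the vehicle groups. The latter was -0.0774 in VCaP and -0.43 in LAPC4. With the same controls KLK1 for 2 µM against DMSO at 22 h in LAPC4 changed sign too (0.30). Few of the 7 LAPC4 vehicle libraries at 22 h are in that subset. With DESeq2 it was KLK1 between the doses at 8 h in LAPC4 (-0.00591). Leaving out 1 replicate gave -0.00686 to 0.0293 for KLK2 at 500 nM and 8 h in VCaP. Between the doses at 8 h in LAPC4 it gave -0.11 to 0.10 for KLK1, -0.51 to 0.43 for KLK15 and -0.13 to 0.0828 for KLK4. For 2 µM against DMSO in LAPC4 it gave -0.46 to 0.14 for KLK15, -0.0806 to 0.00203 for KLK3, -0.0528 to 0.10 for KLK2 and -0.14 to 0.0593 for KLK4 at 8 h, and -0.0793 to 0.0238 for KLK1 and -0.17 to 0.0346 for KLK4 at 22 h. The causes of these shifts were not tested.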
